A study of Mus musculus with 6 samples.

Results

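Of 18193 genes measured, 9 genes that encode phosphatases of immune receptor signalling were taken by symbol, with every probe set annotated to each: the receptor-type protein tyrosine phosphatases Ptprc (CD45) and Ptprj (CD148), the cytosolic tyrosine phosphatases Ptpn6 (SHP-1), Ptpn22 (PEP), Ptpn1 (PTP1B), Ptpn2 (TC-PTP) and Ptpn18 (PTP-HSCF), and the inositol lipid phosphatases Inpp5d (SHIP1) and Inpp4b. All 9 had at least 1 probe set on the array, 21 in all. Both groups were C57BL/6 mice with no genetic change named in the labels. The plasma cells came from bone marrow, sorted as B220- and CD138+ after bead enrichment for CD138, 7 days after a boost with the protein antigen KLH (keyhole limpet hemocyanin). The B cells were naive cells of the spleen, sorted as B220+ and CD23+, and no boost is stated for them. Each group had 3 Affymetrix arrays of RNA from sorted cells, and the labels do not say whether the 3 came from separate animals or pools, nor give the animals' age. The p-values therefore rest on the variation among these arrays, and part of it may be technical. Tissue, boost, bead enrichment and the number of cells used (50000 to 70000 plasma cells against 2000000 to 3000000 B cells) all went with the cell type, and their effects cannot be told apart from it.

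Tyrosine phosphatases remove phosphate from tyrosine and so set the threshold at which an antigen receptor signals. In B cells they work on both sides: CD45 and CD148 strip the inhibitory phosphate from Src-family kinases and keep them ready to act, whereas SHP-1 is drawn to inhibitory receptors such as CD22 through phosphorylated ITIM motifs and dampens the signal. SHIP1 is drawn to the inhibitory Fc receptor and converts the lipid product of PI 3-kinase to a form that recruits fewer effectors, and INPP4B acts on the lipid that SHIP1 leaves behind.

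Values are deposited intensities on a linear scale, and a log2 fold change is the mean of log2(intensity + 16) in plasma cells minus that in B cells. A gene was called when limma gave an adjusted p (Benjamini-Hochberg over all genes) under 0.05. The transcripts of the labelled cell types were present: Sdc1, which encodes CD138, lay between 12664 and 13218 on the plasma cell arrays and between 969 and 1183 on the B cell arrays, and Fcer2a, which encodes CD23, between 44.0 and 52.0 against 5061 to 6734. B cell array 1 stood apart from B cell arrays 2 and 3, with correlations of 0.933 and 0.926 across probe sets against 0.992 between the latter. It had Cd3e, a T cell receptor component, at 1966 against 27.2 and 36.5. Its summed intensity of 11 granulocyte markers was 13109 against 3062 and 2030, with 8601 to 20162 on the plasma cell arrays. Most of that sum came from S100a8 and S100a9 on every array. Camp, Ngp and Ltf followed the pattern of the sum, but not every marker did. Csf3r and Cxcr2 were dimmer in plasma cells (means of 178.3 and 86.4 in B cells, 26.9 and 17.2 in plasma cells). Mpo read 31.7 in B cell array 1, below the 62.9 and 64.2 of arrays 2 and 3. Xist, expressed from the inactive X of females, also set B cell array 1 apart, with 8408 where arrays 2 and 3 read 30.8 and 18.1. The plasma cell arrays had Xist between 8070 and 8702. In results without B cell array 1 a difference of sex therefore cannot be told apart from one of cell type. With all arrays sex and cell type still overlap in part, since among B cell arrays only array 1 matched the plasma cell arrays in Xist. Results that rest on this array are given with and without it.

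Ptprc belongs to the sort gates and is left out of every count and test here. Of the other 8 phosphatase genes 4 were called lower in plasma cells (Ptprj, Ptpn1, Ptpn6 and Inpp5d), 1 was called higher (Ptpn22) and 3 were not called (Ptpn2, Ptpn18 and Inpp4b). Over all genes limma called 12.4% lower and 17.7% higher. After median centring, which moved every log2 fold change by −0.21, 42.4% of the calls over all genes were higher in place of 58.8% (15.0% of all genes lower and 11.0% higher), and the 8 genes still numbered 4 lower and 1 higher. The intensities of the groups did not overlap for 5 of the 8 genes, where 48.1% of all genes had no overlap. The median log2 fold change was −0.35 over the 8 genes and −0.06 over all genes. Without B cell array 1 the count was 4 lower and 2 higher, Inpp4b being the addition, while calls over all genes went to 21.2% lower and 22.7% higher. In these bulk samples fewer transcripts in each cell and fewer cells that carry the transcript cannot be told apart.

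**Figure D1:**
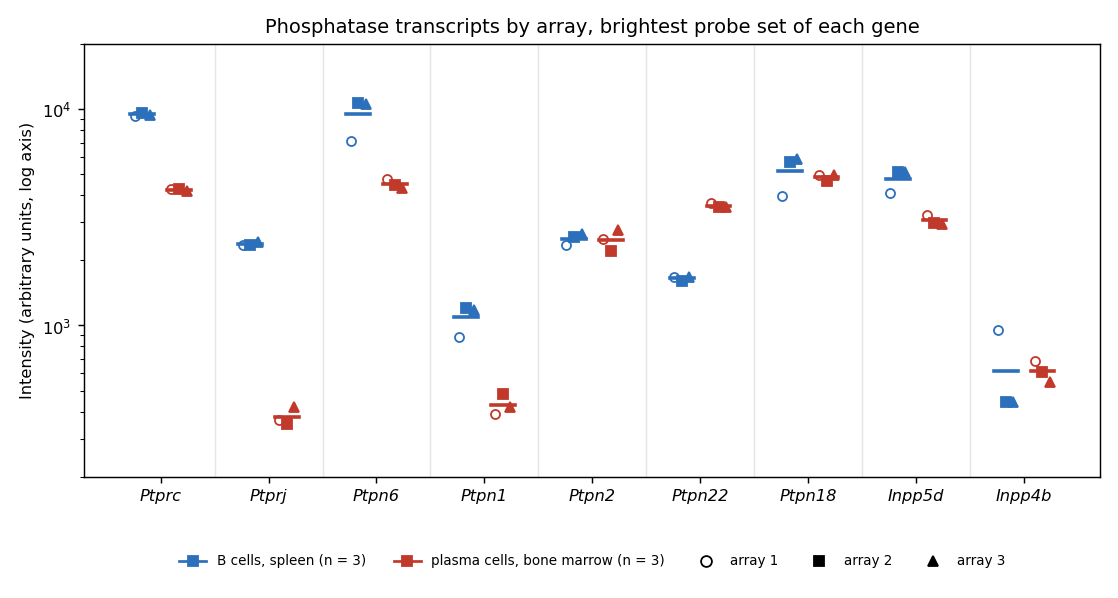
Intensity (log axis, arbitrary units) of the brightest probe set of each of the 9 genes on every array, with a bar at each group mean; blue is B cells and red plasma cells, 3 arrays each, and the marker shape gives the array number. Ptprj falls from about 2377 to 379 and Ptpn22 rises from 1650 to 3579 with tight arrays, whereas Inpp4b on B cell array 1 stands at 950 above the other 5 arrays.

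Both receptor-type genes had lower intensities in plasma cells. Ptprj, which encodes CD148, a partner of CD45 in activating Src-family kinases, had the largest fall of the 8 genes tested. Its brightest probe set (1455030_at) stood at 2346, 2351 and 2434 on B cell arrays 1, 2 and 3 and at 366, 351 and 418 on the plasma cell arrays. The lowest B cell value was thus several-fold above the highest plasma cell value, with a log2 fold change of −2.60 ± 0.12 (SE, n = 3 per group; limma adjusted p = 7.2e-05). A further probe set (1427629_at) had 1464, 655 and 580 in B cells and 21.5, 21.2 and 18.9 in plasma cells, where all 3 arrays lay within background (at or under the 95th percentile of the bacterial control probe sets). It was at least 27.0-fold lower in plasma cells, computed on log2 intensities with each plasma cell array set to that percentile (limma adjusted p = 0.000455 over all probe sets). The probe set 1425588_at fell by 1.45 ± 0.32 on the log2 scale (adjusted p = 0.019), a call lost without plasma cell array 1 (0.0663) or plasma cell array 2 (0.0574). The dimmest, 1425587_a_at, ran at 43.7 to 72.1 in B cells and 21.5 to 39.6 in plasma cells and was not called (adjusted p = 0.0614).

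Ptprc encodes CD45, whose longest protein form carries the B220 epitope. B220 was part of both sort gates, so its values are a description of the sorted cells, with no test. The brighter probe set (1422124_a_at) read 9341, 9599 and 9419 in B cells and 4251, 4288 and 4169.6 in plasma cells, a log2 difference of −1.16. Transcript was thus measured well over background in cells sorted as lacking B220. The other probe set, 1440165_at, read 3678, 3889 and 5025 in B cells and 518, 407 and 563 in plasma cells, a log2 difference of −3.04. The gap between the probe sets within an array was 0.90 to 1.34 (log2) on the B cell arrays and 2.85 to 3.35 on the plasma cell arrays. Ptprcap, which encodes a small protein bound to CD45 and was named after its values were seen, had 3633 to 5311 in B cells and 2161 to 2823 in plasma cells. It was called lower (log2 fold change −0.84, adjusted p = 0.0238). That call was lost when any 1 array other than B cell array 1 was left out (adjusted p from 0.0533 without plasma cell array 3 to 0.0884 without plasma cell array 1).

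The inhibitory phosphatases Ptpn6 and Inpp5d, which share inhibitory receptors as docking sites, were both called lower. The bases just before their annotated starts are shown. A window in the RefSeq promoter table of GRCm38.p6 was found for 8 members, but windows on a chromosome set aside beforehand were not checked. Among the windows checked, only those of Ptpn6 and Inpp5d had 250 bases before the start that overlap no annotated gene. Ptprj and Ptpn1, also called lower, are not shown. The first is chr6:124738710-124738959 on the minus strand and the second chr1:87620062-87620311 on the plus strand. Both are given 5′ to 3′ on the gene's strand, with each GGAA (the core of Ets factor sites) or its complement in capitals.
Ptpn6: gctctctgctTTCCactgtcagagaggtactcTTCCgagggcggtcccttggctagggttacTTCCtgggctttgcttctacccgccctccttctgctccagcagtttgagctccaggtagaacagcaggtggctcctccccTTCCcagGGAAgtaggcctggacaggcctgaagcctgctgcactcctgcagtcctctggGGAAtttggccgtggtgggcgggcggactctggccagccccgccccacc
Inpp5d: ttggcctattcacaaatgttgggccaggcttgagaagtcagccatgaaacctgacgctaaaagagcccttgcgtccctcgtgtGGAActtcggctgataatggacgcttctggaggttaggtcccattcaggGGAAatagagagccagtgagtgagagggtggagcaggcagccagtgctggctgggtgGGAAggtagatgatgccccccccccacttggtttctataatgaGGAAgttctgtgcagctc
The Ptpn6 window held 6 matches to GGAA over both strands and the Inpp5d window 4, and 93.4% of all 32851 windows of the same length held at least 1. The GC box GGGCGG had 5 matches, some overlapping, in the Ptpn6 window and 0 in that of Inpp5d, and 32.7% of all windows held it. GC content was 63.2% before Ptpn6 and 54.4% before Inpp5d. Searched on both strands, GTGAAAG, a core of sites for the plasma cell repressor Blimp-1, was in neither window (3.57% of all windows), and neither were CAGCTG, an E box (13.0%), or TGTGGT, a Runx core (14.0%).

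Ptpn6 read 7159, 10702 and 10546 in B cells and 4733, 4462 and 4300.0 in plasma cells (probe set 1460188_at). Every plasma cell array lay below every B cell array, and B cell array 1 was the lowest of its group. The log2 fold change was −1.05 ± 0.19 (SE, n = 3 per group; limma adjusted p = 0.00896), and −1.24 without B cell array 1 (adjusted p = 0.000504). The second probe set (1456694_x_at), whose suffix marks sequence shared with other transcripts, fell by 1.11 ± 0.21 on the log2 scale. The gap between the probe sets stayed between 0.89 and 1.06 on all 6 arrays. At the level of probe sets, median centring ended the calls of both (adjusted p = 0.0812 and 0.0723).

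Inpp5d read 4081, 5107 and 5116 in B cells and 3247, 2990.5 and 2950.2 in plasma cells (probe set 1418110_a_at). The groups did not overlap, and the fall was the smallest of those called, with a log2 fold change of −0.63 ± 0.14 (limma adjusted p = 0.0199). The dimmer probe set 1424195_a_at had 454, 516 and 470 in B cells and 316, 259 and 338 in plasma cells, a log2 fold change of −0.64 ± 0.15 (adjusted p = 0.0274). Sizes from the 2 probe sets thus lay close together, and median centring ended the calls of both (adjusted p = 0.259 and 0.212). The gene's call was lost when any 1 array other than B cell array 1 was left out (adjusted p from 0.0611 without plasma cell array 1 to 0.0802 without plasma cell array 2). Without B cell array 1 the log2 fold change was −0.74 (adjusted p = 0.00255).

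Ptpn22, the phosphatase that works with the kinase Csk to switch Src-family and Syk-family kinases off, was the member that rose. Its only probe set (1417995_at) read 1680.0, 1603 and 1668 in B cells and 3673, 3546 and 3517 in plasma cells. The lowest plasma cell array lay above every B cell array. The log2 fold change was 1.11 ± 0.11 (SE, n = 3 per group; limma adjusted p = 0.000809), and it stayed between 0.90 and 1.14 over 16 alternative settings, each with a call (highest adjusted p = 0.0172). Csk itself, named after its values were seen, ran the other way, with 2480 to 3531 in B cells and 1366 to 1579 in plasma cells (log2 fold change −1.11, adjusted p = 0.0057). Pag1, the membrane anchor of Csk and also named after its values were seen, fell by 1.80 on the log2 scale (adjusted p = 0.000281).

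Ptpn1 and Ptpn2 are close relatives that act on Janus kinases and their targets, and their values differed. Ptpn1 read 886, 1209 and 1180.1 in B cells and 388, 481 and 421 in plasma cells (probe set 1438670_at). All plasma cell arrays lay below all B cell arrays, with a log2 fold change of −1.30 ± 0.17 (limma adjusted p = 0.00259). Its second probe set (1417068_a_at) had 283, 830.3 and 708 in B cells and 246, 272 and 267 in plasma cells. There B cell array 1 lay next to the plasma cells, the fold change of −1.03 ± 0.40 was not called (adjusted p = 0.115), and without that array it was −1.49 and called (adjusted p = 8e-04). Ptpn2 read 2347, 2575 and 2634 in B cells and 2507, 2208 and 2755 in plasma cells (probe set 1417140_a_at). These ranges overlapped, and the log2 fold change was −0.02 ± 0.14 (adjusted p = 0.925). The 3 dimmer probe sets of Ptpn2 had log2 fold changes of 0.18, 0.40 and 0.65, none of them called (adjusted p = 0.475, 0.217 and 0.186). A difference in log2 fold change between Ptpn1 and Ptpn2 was not tested.

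Ptpn18, a phosphatase regulated through its binding to PSTPIP adaptors and Csk, gave readings that depended on the probe set. The brighter one (1419125_at) had 3952, 5680 and 5910 in B cells and 4971, 4645 and 4937 in plasma cells. B cell array 1 was the lowest of all 6 and arrays 2 and 3 the highest, so the groups overlapped (log2 fold change −0.07 ± 0.19, limma adjusted p = 0.802). Without B cell array 1 it was −0.26 (adjusted p = 0.065). The dimmer one (1444894_at) had 259, 317 and 378 in B cells and 123, 99.1 and 135 in plasma cells, with no overlap, and fell by 1.30 ± 0.19 on the log2 scale (adjusted p = 0.00455 over all probe sets). The mean over both gave −0.69 and a call (adjusted p = 0.0303).

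Inpp4b, the lipid phosphatase that acts after SHIP1, turned on 1 array. Its brighter probe set (1457359_at) had 950, 445 and 444 in B cells and 682, 609 and 550 in plasma cells. B cell array 1 was the highest of all 6, and B cell arrays 2 and 3 were the lowest. With all arrays the log2 fold change was 0.09 ± 0.32 (limma adjusted p = 0.858), and without B cell array 1 it was 0.45 ± 0.12 and called higher (adjusted p = 0.0336). On B cell array 1 Cd3d was at 1139 and Cd3g at 577, against at most 49.6 and 31.8 on B cell arrays 2 and 3. The plasma cell arrays lay between, at 51.5 to 218.9 for Cd3d and 111.5 to 199.9 for Cd3g. The summed intensity of 13 measured T and NK cell markers (of 14) was 11480 on B cell array 1. It was 7570 and 7815 on B cell arrays 2 and 3, and 2543 to 5975 on the plasma cell arrays. Most of the sum on B cell arrays 2 and 3 came from Cd2, which mouse B cells carry too. Between 9 and 13 of these markers lay over background on each of the 6 arrays. Their part in the reading of Inpp4b was not tested. The dimmer probe set (1441416_at) had 55.9, 56.6 and 66.2 in B cells and 123, 51.6 and 132 in plasma cells, with plasma cell array 2 below all B cell arrays (0.56 ± 0.32, adjusted p = 0.255). Without that array it was called higher, at 0.93 (adjusted p = 0.0234).

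**Figure D2:**
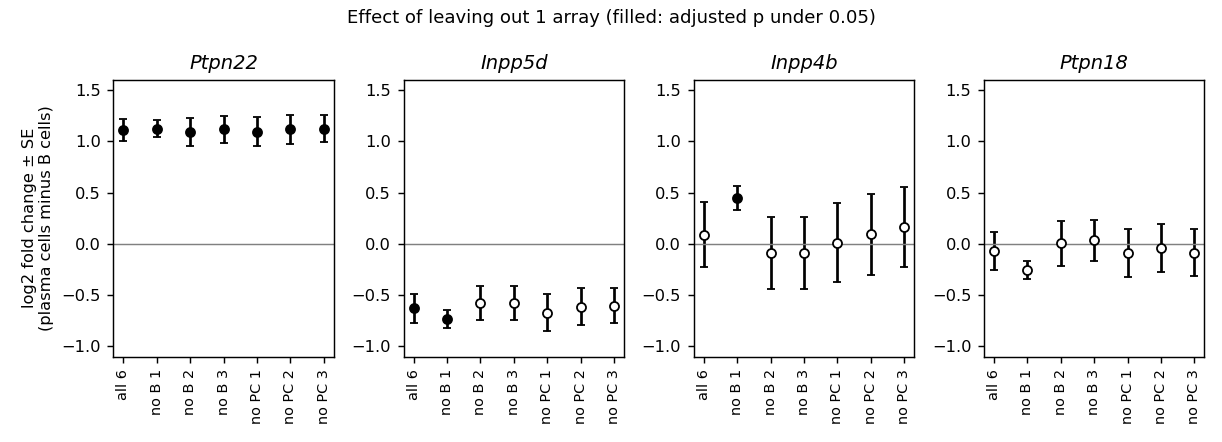
Log2 fold change ± SE (plasma cells minus B cells) of Ptpn22, Inpp5d, Inpp4b and Ptpn18 with all 6 arrays and with each array left out in turn; filled points have an adjusted p under 0.05. Ptpn22 stays near 1.1 and called throughout, Inpp5d is called only with all arrays or without B cell array 1, Inpp4b is called only without B cell array 1, and Ptpn18 is not called in any of the 7 fits.

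At the level of probe sets, 9 of the 19 outside Ptprc were called lower and 1 higher, against 12.8% lower and 13.4% higher over all 45037 probe sets. The 9 became 5 after median centring and 5 without plasma cell array 2, where the share called lower over all probe sets was 7.82% and 7.49%. All 21 probe sets, those of Ptprc included, lay over background on every B cell array, and 19 lay over it on every plasma cell array. The exceptions were 2 probe sets of Ptprj. Whether probe sets of the same gene shifted differently between the groups was tested with the exact two-sided permutation test on their within-array difference, in 11 pairs with the brightest as reference, Ptprc left out. With 3 arrays against 3 the smallest p it can give is 0.1, and 6 pairs reached it (0.183 after Benjamini-Hochberg adjustment), so none could pass. The pairs at 0.1 were those of Ptprj (shifts of 1.92, −1.15 and −1.88 on the log2 scale), Ptpn18 (1.23) and Ptpn2 (−0.42 and −0.67). Ptpn6 (0.06, exact permutation p = 0.4) and Inpp5d (0.01, exact permutation p = 1) had the smallest shifts.

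**Figure D3:**
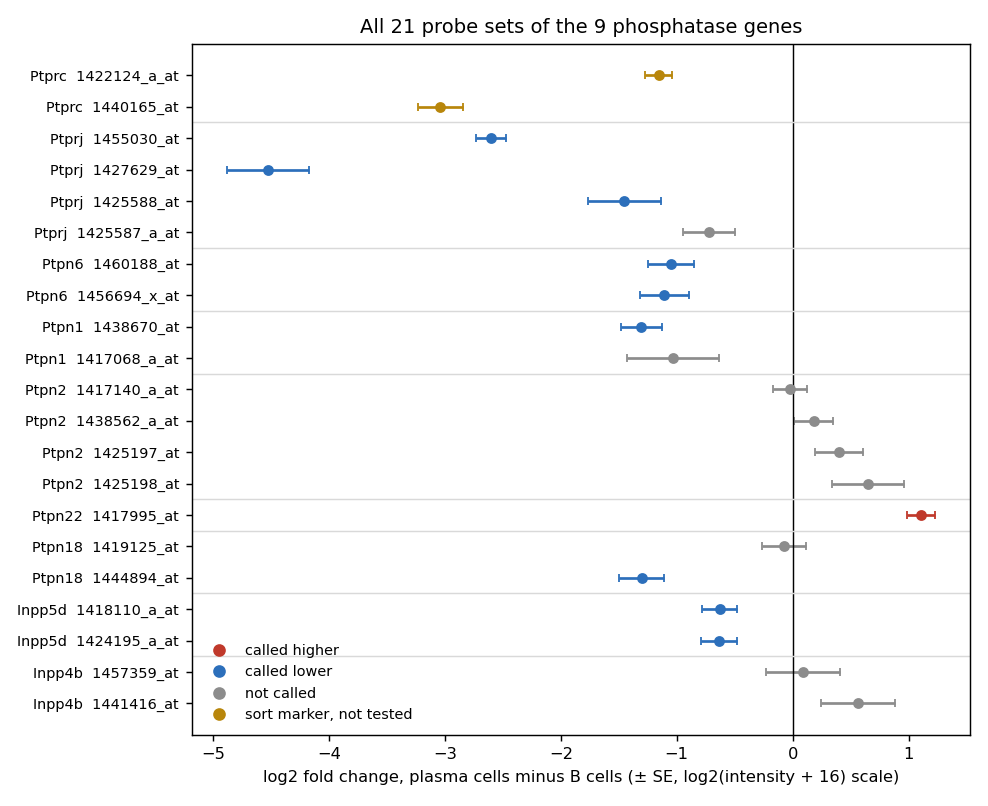
Log2 fold change ± SE (plasma cells minus B cells, log2(intensity + 16) scale) of all 21 probe sets, grouped by gene and coloured by call, with the sort marker Ptprc in a colour of its own. The probe sets of Ptpn6 and of Inpp5d lie together, those of Ptprj spread from −4.53 to −0.72, and Ptpn18 has 1 probe set near 0 and 1 at −1.30; the value of −4.53 rests on plasma cell intensities within background and depends on the constant added.

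Other phosphatases did not share 1 direction. Of 11 other measured non-receptor tyrosine phosphatases (12 listed) 3 were called higher and 2 lower (median log2 fold change −0.20, against −0.06 for all genes). Over all genes 17.7% were called higher and 12.4% lower. Ptpn11, which encodes SHP-2, a relative of SHP-1 that mostly promotes growth factor signalling, read 2683, 2465 and 2501 in B cells and 5025, 4957 and 4662 in plasma cells (log2 fold change 0.93, limma adjusted p = 0.00183). Its direction was thus opposite to that of Ptpn6. Ptpn21 (1.91, adjusted p = 0.0304) and Ptpn9 (0.84, adjusted p = 0.0152) were also higher. Ptpn21 lay over background on 2 of 3 B cell arrays, not on array 1, so the size of its change depends on the constant, and the mean of its probe sets gave 1.19. The call of Ptpn21 was lost without any 1 plasma cell array (adjusted p = 0.0961, 0.0812 and 0.0972 without arrays 1, 2 and 3). That of Ptpn9 was lost without plasma cell array 1 (0.0648) or 2 (0.0509) and after median centring (0.64, adjusted p = 0.132). Ptpn12, the PEST-type phosphatase related to Ptpn22, fell by 1.63 on the log2 scale (adjusted p = 0.00218). Ptpn14 had 360, 562 and 649 in B cells and 35.6, 15.4 and 13.2 in plasma cells, of which only array 1 lay over background, so the size of its log2 fold change (−3.86) depends on the constant. The mean of its probe sets gave −1.90.

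Of 16 other measured receptor-type tyrosine phosphatases (19 listed) 2 were called higher and 1 lower (median −0.20), and without B cell array 1 the 1 lower call became 2. With all arrays, 17.7% of all genes were called higher and 12.4% lower. Ptpre, the epsilon phosphatase of blood cells, rose from 1058 ± 67.5 (SD, n = 3) to 2707 ± 166 (log2 fold change 1.34, adjusted p = 0.000634). Ptprv rose from 92.3 ± 46.2 to 272 ± 55.8 (adjusted p = 0.0275), with 0.98 in place of 1.49 on the log2 scale under array weights, and its call was lost without B cell array 3 (0.0643) or any 1 plasma cell array (0.0618 to 0.098). Ptpro lay within background on all plasma cell arrays and its brightest probe set was at least 2.78-fold lower there (adjusted p = 0.00537). Its log2 fold change of −1.39 became −0.78 with a constant of 64. The mean of its probe sets gave −0.62, still called (limma adjusted p = 0.0242). Of 27 other measured genes of inositol phosphatase families (29 listed) 9 were called higher and 1 lower (median 0.05). Whether the product of each is an active phosphatase was not measured. Inpp4a, the paralog of Inpp4b, read 2894, 2589 and 2944 in B cells and 7692, 6991 and 6641 in plasma cells (1.33, adjusted p = 0.000742). Mtmr10 of the myotubularin family rose by 2.08 (adjusted p = 0.0013), and Minpp1, an ER enzyme that degrades inositol polyphosphates, by 1.21 (adjusted p = 0.0137). The call of Minpp1 was lost without plasma cell array 1 (0.0563) or array 2 (0.0575) and after median centring (0.0635). Inpp5f, which acts on inositol lipids of endosomes, fell by 1.89 (adjusted p = 0.000202). The 9 higher calls became 3 without plasma cell array 1 or array 2, 4 without plasma cell array 3 or B cell array 2, 5 without B cell array 3 and 2 after median centring. Over all genes the higher calls went from 3213 to between 2239 and 2597 without any 1 of those arrays and to 2008 after median centring. Without B cell array 1 the 1 lower call became 5, while lower calls over all genes went from 2248 to 3856.

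The genes that bring these phosphatases to their targets were mostly lower. Of 14 measured inhibitory receptors that recruit SHP-1 or SHIP1 (16 listed) 10 were called lower and 2 higher, with a median log2 fold change of −1.28. The shares over all genes were 12.4% lower and 17.7% higher. Cd22, the sialic acid receptor that docks SHP-1, stood at 10917 ± 1199 (SD, n = 3) in B cells and 158 ± 8.2 in plasma cells. Pirb, a receptor for class I molecules, fell from 1135 ± 112 to 33.5 ± 5.3 with 1 plasma cell array within background, and Cd72 fell by 2.87 on the log2 scale (adjusted p = 0.00479). Fcgr2b, the inhibitory Fc receptor that docks SHIP1 and was named after its values were seen, fell less, with 4563, 5957 and 6079 in B cells and 3334, 3315 and 3443 in plasma cells (−0.70, adjusted p = 0.0171). That call was lost without any 1 array other than B cell array 1 (adjusted p from 0.055 without plasma cell array 3 to 0.0707 without plasma cell array 1), and the mean of its probe sets gave −0.46, still called (adjusted p = 0.0398). Sirpa, the receptor for CD47, and Pdcd1 were the 2 called higher. Sirpa had 1202, 694 and 638 in B cells and 5358, 5098 and 4693 in plasma cells (2.61, adjusted p = 0.00088). Pdcd1, which encodes PD-1, was dim at 35.3 ± 8.5 and 63.5 ± 5.8 (0.64, adjusted p = 0.0326; 0.36 with a constant of 64). Its call was lost without any 1 array other than B cell array 1 (adjusted p from 0.0615 without B cell array 3 to 0.116 without plasma cell array 2).

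Of 14 measured adaptors and partners (15 listed) 8 were called lower and 3 higher (median −0.84). For this list and those below, the shares over all genes were 12.4% lower and 17.7% higher. Pstpip1, an adaptor that binds PEST-type phosphatases, fell from 1508 ± 188 to 200 ± 104 (log2 fold change −2.91, adjusted p = 0.00149). Lpxn fell by 2.19 and Gab3 fell by 1.81 on the log2 scale. Gab2, an adaptor for SHP-2, rose by 1.04 (mean 28.3 to 75.2, 2 of 3 B cell arrays over background). With the mean of its probe sets it was 0.30 and the call was lost (adjusted p = 0.11), and with a constant of 64 it was 0.59. Dok2, an inhibitory docking protein, rose by 0.95 and Shc1 by 0.54 (adjusted p = 0.0239, lost without any 1 array other than B cell arrays 1 and 3, at 0.0703 to 0.0966). Among 10 measured kinases of the Src, Syk, Tec and Janus families (13 listed), which include substrates of these phosphatases, 7 were called lower and 1 higher (median −1.21). Blk fell by 2.39, Jak1 fell by 1.90 and Tec fell by 1.62 on the log2 scale, and the higher one was Tyk2 (0.79, adjusted p = 0.0439), a call lost without any 1 array other than B cell array 1 (adjusted p 0.0593 to 0.133) and when its probe sets were averaged (0.31, adjusted p = 0.321). Without plasma cell array 1 the 7 lower calls became 4, while those over all genes went from 2248 to 1351. Of 16 measured PI 3-kinase and AKT genes (19 listed), only some of which make or read the lipid that SHIP1 removes, 5 were called lower and 2 higher (median 0.02). Pik3cd, the delta catalytic subunit, fell from 2954 ± 604 to 1018 ± 78.2 (log2 fold change −1.50), and the mean of its probe sets gave −0.61, still called (adjusted p = 0.0233). Pik3ap1, a B cell adaptor of PI 3-kinase, fell by 1.82 and Pik3r4 fell by 1.64 on the log2 scale. Pik3cg, the gamma catalytic subunit, rose from 2200 ± 108 to 4358 ± 219 (adjusted p = 0.00165), and Pik3cb, the beta subunit, by 1.85 from 57.2 ± 28.0 with 2 of 3 B cell arrays over background.

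**Figure D4:**
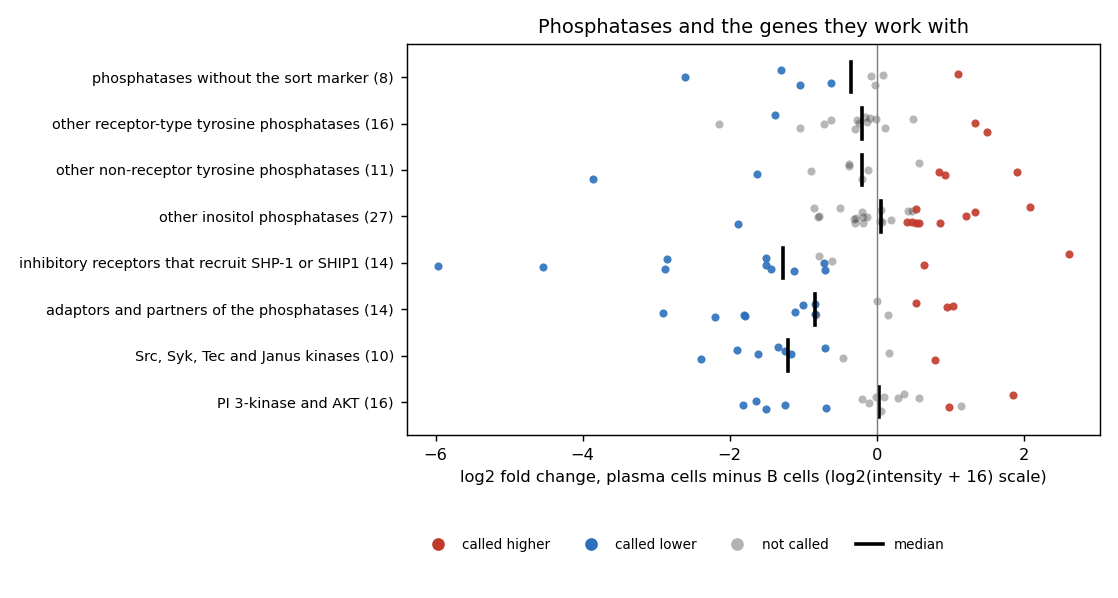
Log2 fold change (plasma cells minus B cells, log2(intensity + 16) scale) of each measured gene in the 8 phosphatases other than Ptprc and in 7 lists of related genes, coloured by call, with a bar at each median and the number measured in brackets. Inhibitory receptors, adaptors and kinases have medians of −1.28, −0.84 and −1.21, while other inositol phosphatases and PI 3-kinase genes lie around 0 with calls on both sides.

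Over the 6 arrays and among 13603 other genes over background on at least 3 arrays, the profiles most like that of Ptpn22 were those of Cxcr3, Fbxw7 and Alg2, each with a Pearson correlation of at least 0.9998 between log2 values. For Ptprj they were Stap1, H2-DMb2 and Ms4a4c, with at least 0.9995. The arrays fall into 2 groups, so such correlations mostly record the difference between cell types and are given as a description.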

How the data were processed

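The authors deposited 1 intensity per probe set and array on a linear scale. RNA was amplified with NuGEN Ovation V2 and labelled with biotin, per the labels' protocols. Summarisation, background correction and normalization are not given in the sources used here. The upper quartile of the arrays ran from 625 to 684. Every value column matched a sample (0 unmatched). Of 45101 probe sets, 64 were controls, 34945 had 1 symbol in the platform annotation of 2016, 932 several and 9160 none. Symbols were updated by Entrez identifier (34741 matched) to the RefSeq table of GRCm38.p6. Each gene took its probe set with the highest mean, giving 18193 genes. Values were taken as log2(intensity + 16), so fold changes of dim genes are understated. Plasma cells were compared with B cells with limma 3.58.1 in R 4.3.3 (lmFit, eBayes), over all genes and, separately, over all 45037 probe sets, with Benjamini-Hochberg adjustment and a threshold of 0.05. Background was the 95th percentile of 27 bacterial control probe sets, 23.0 to 41.8 by array. The procedure was tested on simulated data. Named genes were all members and, of each list, up to 3 called genes per direction with the largest change. Exceptions are marked. Ptprc, a sort marker, was described but neither tested nor counted. The members and lists were chosen with earlier results of these data known. Alternatives changed the constant, scaling, filter, probe set rule, weights, variance trend, block and arrays used. The number of arrays limits the precision.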

Additional observations from a re-analysis of the deposited data

How the results depend on the processing

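Over 16 alternatives to the reported setting, Ptpn6, Ptpn22, Ptpn1 and Ptprj kept direction and call at the gene level. Counts of members leave out Ptprc, for which the mean of probe sets gave −2.10. Median centring gave 2008 genes called higher and 5 member probe sets called lower, and log2 fold changes of −0.118 for Inpp4b, 0.097 for the brightest probe set of Ptpn2 and 0.045 for that of Ptpn18. It moved genes by −0.21 and probe sets by 0.12. Median centring also ended the higher calls of Ptprv, Ptpn9, Minpp1, Pdcd1, Shc1 and Tyk2 (limma adjusted p = 0.0591, 0.132, 0.0635, 0.18, 0.349 and 0.215). Array weights gave 4860 genes higher and 4696 lower, 2 members and 2 member probe sets higher, and −0.01 for Ptpn2 probe set 1438562_a_at. The mean of probe sets gave 0.303 for Ptpn2. Leaving out each array in turn gave 1351 to 3856 genes called lower, 1 to 2 members and 1 to 2 member probe sets higher, and 5 to 10 member probe sets lower. The log2 fold change then ran from −0.096 to 0.063 for Ptpn2, −0.089 to 0.446 for Inpp4b and −0.256 to 0.033 for Ptpn18, in their brightest probe sets too. The cause was not tested. Same-numbered arrays had deviations correlated at 0.05, 0.003 and 0.053, and not every array correlated best with its own number. The labels do not say whether same-numbered arrays were paired, and correlations this small cannot decide it. A replicate block gave 2463 genes higher and 1658 lower, with 1 member higher and 3 lower and an adjusted p of 0.0765 for Inpp5d. With 3 arrays a group and a background of 23.0 to 41.8, small changes and dim probe sets were weakly resolved.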
